A study of Mus musculus with 4 samples.

Results

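The genes described here are 39 cell cycle genes of the mouse, 16 whose transcripts mark the S phase (Mcm2 to Rrm2) and 23 that mark G2 and mitosis (Mki67 to Tpx2). They were chosen by name, with no measured value in the rule, but with earlier results of these data known. All 39 were matched by symbol among the 32285 genes of the count matrices. The cells came from subcutaneous B16-F10 melanomas of C57BL/6 mice, a transplanted line of that strain, which were injected with an adenovirus on day 12 of growth and sorted for CD11c and MHC-II. The 4 groups differed in the virus: Ad-Null, the control; Ad-MEM40, whose treatment label reads ISF35; Ad-mIFNB; and Ad-COMBO, which received ISF35 and mIFNB. The time between injection and harvest is not given in the sources used here. Every group is 1 library made from 3 pooled tumors, so no group has a replicate, no difference has a test, and the intervals below cover counting error only.

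A cell that divides first licenses and fires its origins, which needs the MCM helicase, and copies its DNA in S phase with the PCNA clamp and a supply of deoxynucleotides. It then builds up cyclin A, cyclin B and CDK1 through G2, assembles a spindle, and ends mitosis when the anaphase-promoting complex destroys the cyclins. S phase genes are known targets of the E2F factors, and G2/M genes of the MuvB complex with FoxM1 or B-Myb, which acts through the CHR element and CCAAT boxes. Conventional dendritic cells come from dividing precursors and can still divide in tissue, whereas mature dendritic cells and plasmacytoid dendritic cells are known as mostly resting.

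The promoters of the 2 lists are shown because they hold different motifs. RefSeq promoters (GRCm38.p6, 250 bases before to 50 after the start site) were found for 34 of the 39 genes (not Mcm4, Gins2, Ccna2, Aurkb or Tpx2), as 16 promoters of 14 S genes and 20 of 20 G2/M genes. An E2F motif, taken as TTTGGCGC, TTTCCCGC, TTTGCCGC or TTTCGCGC on either strand, was in 7 of 16 S gene promoters (43.8%), 1 of 20 G2/M gene promoters (5%) and 2.26% of all 32851 promoters. A CHR motif, TTTGAA or TTCGAA on either strand, was in 2 of 16 S gene promoters (12.5%), 15 of 20 G2/M gene promoters (75%) and 19.2% of all. CCAAT was in 12 of 16 (75%), 17 of 20 (85%) and 37.4%. A CHR motif together with CCAAT was in 15 of 20 G2/M gene promoters against 7.52% of all. A match is a run of letters and not a measured binding site. Below are 120 bases that end at the start site of 6 members, or 26 and 9 bases before it for Cdk1 and Cdc20, 5′ to 3′ on the gene's strand, with these motifs on either strand in capitals. These are examples that each hold an E2F or a CHR motif, which most such windows of the other members do not. The window of the S gene Mcm2, not printed, holds 1 CHR motif.
Mcm6, chr1:128359706-128359825, minus strand, an S gene with 3 E2F motifs, of which the first pair overlap: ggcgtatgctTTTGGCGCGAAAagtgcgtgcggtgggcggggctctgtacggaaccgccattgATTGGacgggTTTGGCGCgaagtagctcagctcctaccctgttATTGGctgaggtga
Cdk1, chr10:69352939-69353058, minus strand, a G2/M gene with an E2F and a CHR motif: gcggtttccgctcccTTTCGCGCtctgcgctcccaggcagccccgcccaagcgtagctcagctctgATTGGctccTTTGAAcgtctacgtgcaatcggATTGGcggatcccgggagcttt
Top2a, chr11:99024190-99024309, minus strand: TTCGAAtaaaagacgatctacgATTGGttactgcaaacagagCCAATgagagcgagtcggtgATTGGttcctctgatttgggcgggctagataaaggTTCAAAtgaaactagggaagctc
Cdc20, chr4:118437353-118437472, minus strand: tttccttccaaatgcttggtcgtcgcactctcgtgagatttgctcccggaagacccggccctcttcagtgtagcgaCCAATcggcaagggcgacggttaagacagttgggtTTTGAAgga
Mki67, chr7:135716380-135716499, minus strand: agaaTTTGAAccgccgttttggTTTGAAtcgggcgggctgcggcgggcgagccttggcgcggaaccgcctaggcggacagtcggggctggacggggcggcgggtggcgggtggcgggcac
Kif11, chr19:37376262-37376381, plus strand: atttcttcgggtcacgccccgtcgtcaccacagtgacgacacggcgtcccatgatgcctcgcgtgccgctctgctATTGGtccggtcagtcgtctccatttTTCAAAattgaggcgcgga

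The 4 libraries held 8745, 15656, 1810 and 671 cells with at least 500 genes and at most 10% mitochondrial UMIs, in the order Ad-Null, then Ad-MEM40, then Ad-mIFNB, then Ad-COMBO, which unlabelled series of 4 values follow below, with medians of 15277, 9483, 13616 and 11434 UMIs per cell. Libraries shared at most 63 barcodes, and at most 41 among these cells. Cells were put in classes by marker counts, and a class is called like a cell type only for its markers. Although the labels read DC, macrophage-like cells were 17.3%, 26.8%, 11.4% and 12.2% of the libraries, and melanoma-like cells 1.05%, 1.69%, 0.442% and 0.298%. The summed level of 8 interferon-stimulated genes in cells with fewer than 3 S and fewer than 3 G2/M UMIs, each cell thinned to 3000 UMIs, was 1372, 1521, 6719 and 6947 CPM, which sets Ad-mIFNB and Ad-COMBO apart from the other libraries. Levels are UMIs of a gene in 1000000 UMIs of the cells (CPM), from 3′ ends, so they are not set against each other between genes, and ratios of the S to the G2/M sum serve only to compare libraries.

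In all cells, S transcripts were near Ad-Null after Ad-MEM40 and lower after the viruses with mIFNB, and G2/M transcripts fell further than S transcripts after Ad-mIFNB. The 16 S genes summed to 707 CPM (95% interval 703 to 711), 713 (709 to 717), 580 (571 to 588) and 467 (453 to 481) over the libraries. The 23 G2/M genes summed to 1241 (1236 to 1247), 1164 (1159 to 1169), 651 (641 to 660) and 741 (724 to 759) CPM. Ad-COMBO was thus lowest for S genes and Ad-mIFNB lowest for G2/M genes. Against Ad-Null, which all 3 comparisons share, the log2 ratio of the S sum was 0.01 for Ad-MEM40, −0.29 for Ad-mIFNB and −0.60 for Ad-COMBO, and that of the G2/M sum −0.09, −0.93 and −0.74. The log2 ratio of S to G2/M sums was −0.81 in Ad-Null, −0.71 in Ad-MEM40, −0.17 in Ad-mIFNB and −0.67 in Ad-COMBO, so this ratio was highest in Ad-mIFNB. Ad-COMBO against Ad-mIFNB gave −0.31 for the S sum and 0.19 for the G2/M sum, and against Ad-MEM40 −0.61 and −0.65. With every cell thinned to 3000 UMIs the ratios of Ad-COMBO to Ad-Null shrank to −0.38 for S and −0.42 for G2/M, both short of 1.5-fold, while the G2/M ratio of Ad-mIFNB was −0.89.

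**Figure D1:**
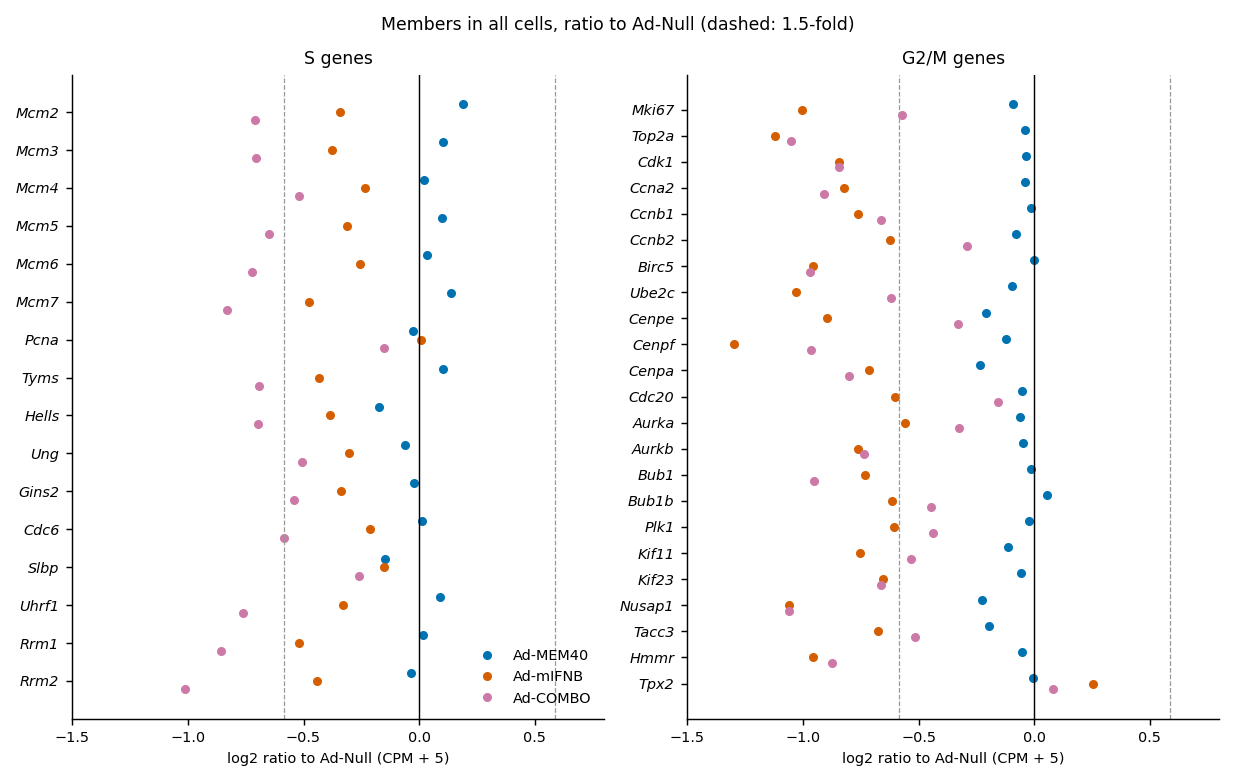
Log2 ratio of each S gene (left) and G2/M gene (right) to Ad-Null in all cells, with 5 CPM added to both sides. Points are libraries, dashed lines mark 1.5-fold, and the Ad-mIFNB points lie left of the left line for 21 of 23 G2/M genes and 0 of 16 S genes.

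Members were counted as higher or lower at 1.5-fold after 5 CPM were added to both sides, and all 39 had the 20 UMIs needed. After Ad-MEM40 0 of 39 passed in either direction, where 0.776% of all genes tested were higher and 0.34% lower. After Ad-mIFNB 0 of 16 S genes and 21 of 23 G2/M genes were lower, against 1.41% of all genes, and the list medians were −0.33 and −0.76 on the log2 scale against −0.02 for all genes. After Ad-COMBO 10 of 16 S genes and 13 of 23 G2/M genes were lower, against 3.22% of all genes, with medians of −0.69 and −0.66. No member was higher by 1.5-fold after Ad-mIFNB (2.65% of all genes were) or Ad-COMBO (5.98%). Between Ad-COMBO and Ad-mIFNB 0 members passed in either direction, where 2.66% of all genes were higher and 0.631% lower. At 2-fold 5 members were lower after Ad-mIFNB, against 0.307% of all genes, and 3 after Ad-COMBO, against 0.504%. With cells thinned to 3000 UMIs the count lower by 1.5-fold after Ad-COMBO was 14 of 39, against 5.74% of all genes.

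Among the S genes, the 6 MCM subunits form the replicative helicase. Mcm2 (ENSMUSG00000002870, chr6:88883474-88898780) stood at 21.5 CPM in Ad-Null, 25.2 in Ad-MEM40, 15.9 in Ad-mIFNB and 11.2 in Ad-COMBO. Mcm7 stood at 41.9, 46.6, 28.7 and 21.3 CPM. These subunits were highest in Ad-MEM40 and lowest in Ad-COMBO, with log2 ratios to Ad-Null of 0.19 and −0.71 for Mcm2 and 0.14 and −0.83 for Mcm7. Mcm3 (60.3, 65.1, 45.2 and 35.1 CPM), Mcm4 (39.5, 40.1, 32.9 and 26.1) and Mcm5 (35.1, 37.8, 27.3 and 20.5) followed the same order of libraries. Mcm6, whose promoter is printed above, stood at 44.3, 45.5, 36.3 and 24.9 CPM.

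The subunits of ribonucleotide reductase, which makes deoxynucleotides, gave the lowest ratios of the S genes after Ad-COMBO. Rrm2, its regulated subunit, stood at 29.9 CPM in Ad-Null, 29.1 in Ad-MEM40, 20.7 in Ad-mIFNB and 12.3 in Ad-COMBO, a log2 ratio of −1.01 for the last. The large subunit Rrm1 stood at 52.3, 52.9, 35.002 and 26.7 CPM. Tyms, thymidylate synthase, stood at 30.2, 32.9, 21.1 and 16.8 CPM. All 3 were lowest in Ad-COMBO and next lowest in Ad-mIFNB.

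Pcna, the sliding clamp, and Slbp, which binds the stem-loop of histone mRNA, moved least among the S genes in the libraries with mIFNB. Pcna stood at 164 CPM in Ad-Null, 161 in Ad-MEM40, 165 in Ad-mIFNB and 147 in Ad-COMBO, and Slbp at 77.5, 69.3, 69.2 and 63.9. Hells, a chromatin remodeler, stood at 36.9, 32.2, 27.1 and 20.8 CPM and was the S gene furthest below Ad-Null after Ad-MEM40, at −0.17. The licensing factor Cdc6 stood at 9.1, 9.2, 7.2 and 4.4 CPM, with a log2 ratio of −0.21 in Ad-mIFNB. For the GINS subunit Gins2, Uhrf1 of maintenance methylation and the uracil glycosylase Ung, the ratios ran from −0.34 to −0.30 after Ad-mIFNB and from −0.76 to −0.51 after Ad-COMBO.

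Among the G2/M genes, Cenpf and Top2a gave the lowest ratios after Ad-mIFNB, and Nusap1 and Top2a after Ad-COMBO. Cenpf, a kinetochore protein, stood at 61.8 CPM in Ad-Null, 56.4 in Ad-MEM40, 22.2 in Ad-mIFNB and 29.2 in Ad-COMBO, which is a log2 ratio of −1.30 in Ad-mIFNB. Top2a, the topoisomerase that decatenates chromosomes, stood at 170 CPM, 166, 75.6 and 79.6. Mki67, which coats mitotic chromosomes, stood at 182, 170, 88.1 and 121. Top2a was about as low in Ad-COMBO as in Ad-mIFNB, whereas Mki67 was higher in Ad-COMBO than in Ad-mIFNB by 0.43 on the log2 scale. Cenpe, a kinetochore motor, stood at 60.4, 51.6, 30.1 and 47.0 CPM, with ratios of −0.21, −0.90 and −0.33. The centromeric histone Cenpa stood at 85.1, 71.5, 49.9 and 46.8, and was the member furthest below Ad-Null after Ad-MEM40, at −0.24.

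The cyclin and kinase genes gave ratios between −0.84 and −0.56 after Ad-mIFNB. Ccna2, cyclin A2, stood at 29.7, 28.7, 14.6 and 13.4 CPM. Cdk1 stood at 37.1, 36.1, 18.5 and 18.5. Both were about as low in Ad-COMBO as in Ad-mIFNB. Ccnb1 and Ccnb2, the B cyclins, gave log2 ratios of −0.76 and −0.62 in Ad-mIFNB and of −0.66 and −0.29 in Ad-COMBO. Ccnb2 stood at 34.1, 32.0, 20.4 and 27.0 CPM. Aurka, Aurkb and Plk1, the mitotic kinases, gave −0.56, −0.76 and −0.61 in Ad-mIFNB and −0.33, −0.74 and −0.44 in Ad-COMBO. Bub1 and Bub1b of the spindle checkpoint gave −0.73 and −0.62, then −0.95 and −0.45.

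Genes of mitotic exit and of the spindle split in Ad-COMBO. Cdc20, the activator of the anaphase-promoting complex, stood at 19.6 CPM in Ad-Null, 18.8 in Ad-MEM40, 11.2 in Ad-mIFNB and 17.1 in Ad-COMBO. Ube2c, its ubiquitin-conjugating enzyme, stood at 96.6, 90.02, 44.8 and 61.1. Birc5, survivin of the chromosomal passenger complex, stood at 85.0, 84.9, 41.4 and 41.0. Cdc20 in Ad-COMBO was thus near Ad-Null (−0.15), while Birc5 was as low as in Ad-mIFNB (−0.97). The microtubule protein Nusap1 stood at 49.1, 41.2, 21.0 and 20.9 CPM, which is −1.06 in both libraries with mIFNB. The kinesins Kif11 and Kif23 and the spindle proteins Hmmr and Tacc3 gave ratios from −0.95 (Hmmr) to −0.65 (Kif23) after Ad-mIFNB, from −0.87 (Hmmr) to −0.52 (Tacc3) after Ad-COMBO, and from −0.20 (Tacc3) to −0.05 (Hmmr) after Ad-MEM40. Tacc3 stood at 39.2, 33.5, 22.6 and 25.9 CPM.

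Tpx2, the spindle assembly factor that activates Aurora A, was the one G2/M gene above Ad-Null in both libraries with mIFNB. It stood at 51.8 CPM in Ad-Null, 51.6 in Ad-MEM40, 62.9 in Ad-mIFNB and 55.1 in Ad-COMBO. With no CPM added, the log2 ratio of Ad-COMBO was 0.09 with an interval of −0.04 to 0.21, which includes 0. The UMIs of Tpx2 lay in different cells. Of its UMIs 83.4% in Ad-Null were in cells called for S or G2/M transcripts by the other members, against 34.9% in Ad-mIFNB and 42.7% in Ad-COMBO. In the cells without a call Tpx2 stood at 9.01 CPM (7.61 to 10.6), 9.55 (8.42 to 10.8), 50.7 (43.8 to 58.5) and 39.4 (29.3 to 51.7) over the libraries. In the called cells it stood at 90.4, 98.6, 94.97 and 91.8 CPM. So the intervals of the called cells overlapped between libraries, and the level in the other cells was higher in the libraries with mIFNB. Mki67 was also higher by 1.5-fold in uncalled cells of Ad-COMBO, but lower by 1.5-fold in those of Ad-mIFNB. Among the uncalled cells of Ad-mIFNB Tpx2 was highest in the ungated cells (104 CPM, interval 83.6 to 129) and in the Itgam/Ccr2 cells (65.7, 49.0 to 86.1). It was lower in cDC1-like cells (17.1, 7.84 to 32.5). In Ad-Null the same 3 classes gave 11.6, 8.87 and 3.21 CPM. A Tpx2 UMI was found in 10.7% of the uncalled Ad-mIFNB cells, with at most 7 UMIs in a cell, against 2.46% in Ad-Null. In uncalled mature DC-like cells these shares were 7.74% and 2.22%, and in uncalled pDC-like cells of Ad-mIFNB Tpx2 had 0 UMIs in 36 cells, an upper limit of 34.2 CPM. The part of free RNA in these UMIs was not tested. The gene (ENSMUSG00000027469, chr2:152847964-152895321) overlaps no other gene of the count matrices. Without it the log2 ratio of the G2/M sum was −1.02 for Ad-mIFNB and −0.79 for Ad-COMBO.

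**Figure D2:**
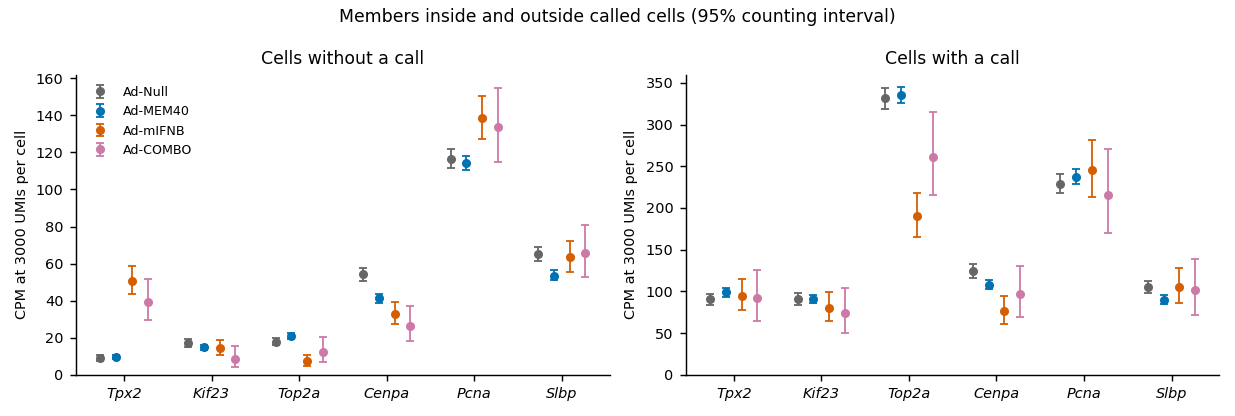
CPM of 6 members in cells without a call (left) and with a call (right) for S or G2/M transcripts, where the call leaves the gene itself out. Points are libraries, bars are 95% counting intervals, and in uncalled cells Tpx2 is at 50.7 and 39.4 CPM in Ad-mIFNB and Ad-COMBO and near 9 in the other libraries, and in called cells it lies between 90.4 and 98.6 in all 4.

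To place the genes in the cycle, each cell was thinned to 3000 UMIs, leaving out 634, 2069, 204 and 101 shallower cells, and called for S transcripts at 3 or more UMIs of the S genes and for G2/M transcripts at 3 or more UMIs of the G2/M genes. Each member was then measured in cells called without it. All 23 G2/M genes were higher in G2/M only than in S only cells in each of the 4 libraries, and 13 of 16 S genes were higher in S only cells in each. For S genes some gaps in the smaller libraries were near ties. Gins2 stood at 11.5 against 11.1 CPM in Ad-COMBO, and Cdc6 at 7.13 against 7.09 in Ad-mIFNB. Ung leaned furthest to S only cells, at 20.4 CPM against 1.86 in G2/M only cells. Hmmr leaned furthest the other way, at 3.19 against 143. The S genes that did not lean to S only cells were those of deoxynucleotide supply. Rrm2 stood at 16.6 CPM in S only cells, 138 in cells with both kinds of transcript and 26.8 in G2/M only cells, Tyms at 24.5, 112 and 33.0, and Rrm1 at 55.3, 170 and 66.0. Rrm2 and Tyms were higher in G2/M only cells in 4 of 4 libraries and Rrm1 in 2 of 4. Here too some gaps were near ties. Tyms stood at 11.1 CPM in 60 G2/M only cells against 10.9 in 61 S only cells of Ad-COMBO, and Rrm2 at 21.1 against 20.9 in Ad-mIFNB. All S genes but Ung were highest in cells with both kinds of transcript, as were 12 of 23 G2/M genes, among them Top2a, Cdk1, Ccna2 and Bub1. The other 11, among them Cdc20, Plk1, Ccnb1, Ube2c and Cenpf, were highest in G2/M only cells. Ccna2, for example, stood at 92.9 CPM in cells with both and 78.6 in G2/M only cells, and Cdc20 at 31.7 and 83.2.

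UMIs of some members were also found in cells without a call, which by its definition may hold up to 2 UMIs of each list beside the gene itself, and the part of free RNA in them was not tested. Pcna stood at 117 CPM there against 241 in S only cells, Slbp at 58.5 against 89.4 and Cenpa at 44.5 against 214 in G2/M only cells. By contrast Plk1 stood at 1.10 against 71.4 in G2/M only cells. In uncalled cells Pcna stood at 116, 114, 138 and 134 CPM over the 4 libraries, and Cenpa at 54.2, 41.2, 32.7 and 26.5, so Pcna was higher in Ad-mIFNB (127 to 150 against 111 to 122 in Ad-Null), with an interval in Ad-COMBO (115 to 155) that overlaps Ad-Null, and Cenpa was lower in both libraries with mIFNB. The 64 histone cluster genes, whose main transcripts carry no poly(A) tail and which are no members, reached 725 CPM in S only, 10247 in S and G2/M, 5596 in G2/M only and 464 in uncalled cells of Ad-Null, and the cells with both were highest in each library.

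**Figure D3:**
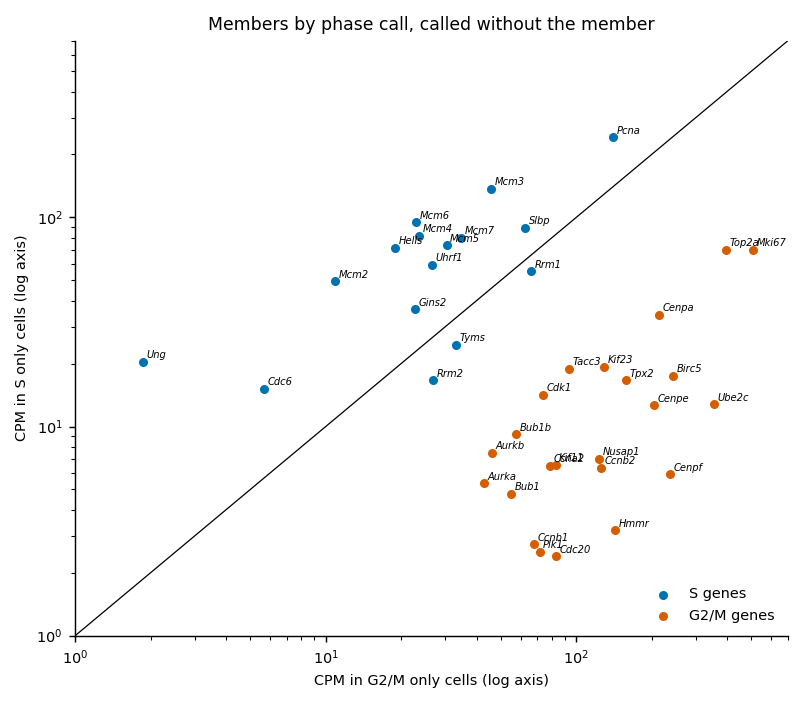
CPM of each member in S only cells against G2/M only cells over the 4 libraries, on log axes, where calls leave the member out. The line marks equal levels, the G2/M genes lie below the line, and of the S genes Tyms, Rrm1 and Rrm2 do.

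The share of cells called was lower in the libraries with lower sums. In what follows a cell with S or G2/M transcripts is one called for them at 3 or more UMIs. S transcripts were thus found in 22.5% of cells (95% interval 21.6 to 23.5, Clopper-Pearson), 22.6% (21.9 to 23.3), 17.5% (15.7 to 19.4) and 14.9% (12.1 to 18.1) over the libraries. G2/M transcripts were found in 21.6% (20.7 to 22.5), 20.9% (20.2 to 21.6), 11.5% (9.94 to 13.1) and 14.6% (11.8 to 17.7). Over all cells the S only share hardly moved, at 12.1%, 12.4%, 11.9% and 10.9%. In cDC1-like cells it was 14.6%, 13.9%, 14.1% and 6.92%. In pDC-like cells, few of which had G2/M transcripts, it was 9.76%, 12.4%, 14.3% and 27.3%. Over all cells the share with both kinds of transcript fell from 10.4% and 10.2% to 5.60% in Ad-mIFNB and 4.04% in Ad-COMBO. The G2/M only share was 11.2%, 10.6%, 5.85% and 10.5%, so that it was low in Ad-mIFNB and not in Ad-COMBO. Of the cells with either kind, 64.1%, 62.8%, 49.1% and 57.2% had G2/M transcripts. In called cells the mean number of G2/M UMIs in 3000 was 10.8, 10.8, 9.77 and 11.7. That of S UMIs was 5.32, 5.42, 5.01 and 5.38. Over all classes these means differed less between libraries than the shares did, but a call at 3 or more UMIs bounds them from below. In Itgam/Ccr2 cells the G2/M mean was 11.8 in Ad-Null, 7.5 in Ad-mIFNB and 5.6 in Ad-COMBO, the last from 5 cells. This mean was higher in Ad-mIFNB than in Ad-Null in macrophage-like cells (12.96 against 9.63) and mature DC-like cells (7.94 against 5.95). In cells called for either list without the gene itself, 7 of 23 G2/M genes were lower by 1.5-fold in Ad-mIFNB and 1 in Ad-COMBO. Of the 16 S genes 1 and 5 were lower in these cells. In uncalled cells 7 and 3 of 23 G2/M genes and 1 and 4 of 16 S genes were lower, so the Ad-mIFNB counts were the same in both kinds of cell. No share of all genes is given for these cells. Without thinning the shares with S transcripts were 69.5%, 53.8%, 62.5% and 57.2% and with G2/M transcripts 51.7%, 39.3%, 36.0% and 32.6%, and here the shallower Ad-MEM40 library fell below Ad-Null. In Ad-Null the cells with both kinds of transcript had a median of 26766 UMIs before thinning and the uncalled cells 14711. Scrublet called as doublets 12.99% of the cells with both kinds, 14.99% of the G2/M only cells and 5.02% of the uncalled cells in Ad-Null. In Ad-MEM40 these were 20.8%, 22.9% and 10.0%, and in Ad-mIFNB and Ad-COMBO 0% of the first 2 kinds. The number of doublets called was set to an expected share in Ad-Null and Ad-MEM40 only, and the part of doublets in these shares was not tested.

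**Figure D4:**
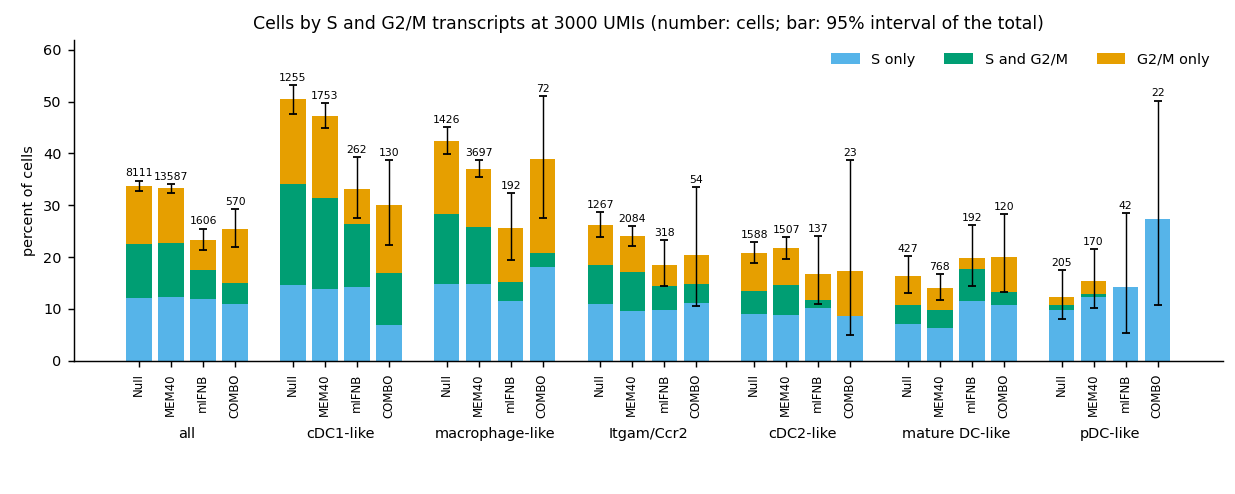
Percent of cells with S only, S and G2/M, or G2/M only transcripts at 3000 UMIs per cell, by class and library, for classes of at least 20 cells, with the number of cells and the 95% interval of the total. In cDC1-like cells the share with either kind falls from 50.4% in Ad-Null to 33.2% in Ad-mIFNB and 30.0% in Ad-COMBO.

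The cDC1-like cells, gated on Xcr1, Clec9a and related markers, held the most G2/M transcripts among the dendritic classes of Ad-Null. Their S sum was 968 CPM (956 to 980), 962 (949 to 974), 870 (845 to 896) and 591 (562 to 622) over the libraries. Their G2/M sum was 2000 CPM (1983 to 2017), 1950 (1932 to 1969), 1087 (1059 to 1116) and 1127 (1086 to 1168). So in Ad-mIFNB the G2/M sum was 1.84-fold lower with the S sum only 1.11-fold lower, while in Ad-COMBO both were lower, by 1.78-fold and 1.64-fold. After Ad-mIFNB 0 of 16 S genes and 18 of 23 G2/M genes were lower by 1.5-fold, against 1.9% of all genes in this class. After Ad-COMBO 11 of 16 and 16 of 23 were, against 6.38%. Rrm2 stood at 59.1, 54.8, 51.6 and 28.8 CPM and Mcm6 at 69.7, 65.0, 64.1 and 34.6, so these S genes were low in Ad-COMBO and not in Ad-mIFNB. Top2a stood at 291, 292, 146 and 140 CPM and was low in both. The share of cells with S transcripts was 34.0%, 31.4%, 26.3% and 16.9%, and with G2/M transcripts 35.9%, 33.4%, 19.1% and 23.1% of 1255, 1753, 262 and 130 cells. Melanoma marker levels in this class were 23.5, 39.1, 6.84 and 6.92 CPM against 17176 CPM in the melanoma-like cells of Ad-Null. With cells thinned to 3000 UMIs the log2 ratios of Ad-COMBO to Ad-Null were −0.53 for S and −0.55 for G2/M, just short of 1.5-fold. In the thinned cells the mean of S UMIs was 2.60 in Ad-Null and 2.12 in Ad-mIFNB, a wider gap than in the sums. That of G2/M UMIs was 4.91 and 2.51.

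In macrophage-like cells both lists were lower after Ad-mIFNB. The S sum was 773 CPM in Ad-Null, 719 in Ad-MEM40, 520 in Ad-mIFNB and 510 in Ad-COMBO, and the G2/M sum 1289, 1131, 760 and 909. The log2 ratios were −0.57 and −0.60 for S and −0.76 and −0.50 for G2/M in the libraries with mIFNB. After Ad-mIFNB 7 of 16 S genes and 14 of 23 G2/M genes were lower by 1.5-fold, against 2.41% of all genes, and after Ad-COMBO 7 of 16 and 6 of 23, against 5.66%. Top2a was the lowest member after Ad-mIFNB (146 CPM in Ad-Null, 54.6 in Ad-mIFNB), and Cdc20 the highest after Ad-COMBO, at 0.49. The G2/M ratio of Ad-mIFNB was −0.51 with cells thinned, and that of Ad-COMBO, from 82 cells, ran from −0.29 with stricter cell filters to −0.90 with a stricter gate.

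The Itgam/Ccr2 cells, which carry at least 2 of Itgam, Sirpa and Ccr2 and met no other gate, had lower G2/M transcripts in both libraries with mIFNB. Their G2/M sum was 1027 CPM in Ad-Null, 930 in Ad-MEM40, 443 in Ad-mIFNB and 353 in Ad-COMBO, against an S sum of 645, 611, 509 and 455. The log2 ratios were −1.21 and −1.54 for G2/M and −0.34 and −0.50 for S. After Ad-mIFNB 3 of 16 S genes and 21 of 23 G2/M genes were lower by 1.5-fold, against 4.66% of all genes, and after Ad-COMBO 9 of 16 and 19 of 23, against 12.2%. Ube2c was lowest after Ad-mIFNB at −1.85, and Hmmr after Ad-COMBO at −2.77. Tpx2 was the highest member in both, at 0.45 and 0.47. The Ad-COMBO values rest on 61 cells, and with a gate of 1 more marker, which left 19, the G2/M ratio turned to 0.39, while that of Ad-mIFNB was −0.96.

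In cDC2-like cells, gated on Cd209a, Clec10a and Mgl2, the G2/M sum was 792 CPM in Ad-Null, 893 in Ad-MEM40 and 411 in Ad-mIFNB, and the S sum 454, 537 and 414. After Ad-mIFNB 17 of 23 G2/M genes and 1 of 16 S genes were lower by 1.5-fold, against 2.33% of all genes in this class. The G2/M ratio was −0.94, or −0.38 with a gate that needed all 3 markers and left 32 cells of Ad-mIFNB. Only 23 cells of Ad-COMBO were of this class, so it was not compared there.

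Mature DC-like cells, gated on Ccr7, Fscn1 and related markers, had lower sums of both lists than cDC1-like and macrophage-like cells in each library. Their S sum was 438, 380, 467 and 400 CPM and their G2/M sum 445, 360, 580 and 250. In Ad-mIFNB this G2/M sum was above that of the cDC2-like (411) and Itgam/Ccr2 cells (443). The G2/M sum of mature DC-like cells after Ad-mIFNB was also above Ad-Null, by 0.38 on the log2 scale. In them 4 of 23 G2/M genes (Tpx2, Cenpe, Ube2c and Ccnb2) were higher by 1.5-fold, against 5.55% of all genes. With cells thinned to 3000 UMIs the ratio was −0.08, and with a stricter gate −0.26, so its direction turned. With Scrublet doublets removed it stayed above Ad-Null and passed 1.5-fold, so the alternatives went both ways. The G2/M share was 9.37% in Ad-Null, 7.68% in Ad-MEM40, 8.33% in Ad-mIFNB and 9.17% in Ad-COMBO, with intervals that overlap, while the S share was 10.8%, 9.77%, 17.7% and 13.3%. After Ad-COMBO 13 of 23 G2/M genes were lower, against 12.1% of all genes, and the ratio went from −0.83 to −0.28 on thinning. These cells, at median depths of 12762, 7423, 11081 and 10583 UMIs, served as the planned background for the shares. The cDC1-like G2/M shares stood above it in each library, at median depths of 19844, 12179, 18896 and 19132. For S transcripts the share over all cells of Ad-mIFNB, 17.5%, was near the 17.7% of this background. A lower G2/M share was seen in pDC-like cells, gated on Siglech, Ccr9 and others, of which 2.44% of 205 in Ad-Null and 2.94% of 170 in Ad-MEM40 had 3 or more G2/M UMIs. Of the 42 and 22 pDC-like cells of the other libraries 0 had 3 or more, with upper limits of 8.41% and 15.4%. In 3000 UMIs 76.2% and 72.7% of these had no G2/M UMI. The G2/M sum of the class was 157, 171, 97.3 and 82.4 CPM, and its S sum 404, 384, 368 and 417. Its share with S transcripts was 10.7%, 12.9%, 14.3% and 27.3%, the last from 22 cells.

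**Figure D5:**
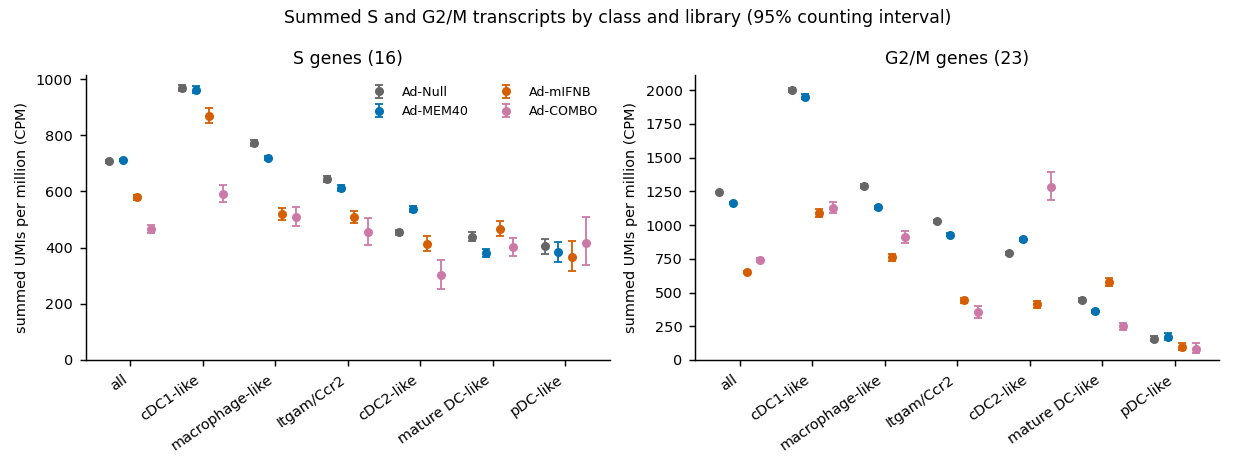
Summed CPM of the 16 S genes (left) and the 23 G2/M genes (right) by class and library, for classes of at least 20 cells, with 95% Poisson intervals. The G2/M sum of cDC1-like cells falls from 2000 to 1087 CPM between Ad-Null and Ad-mIFNB and their S sum from 968 to 870, and the cDC2-like point of Ad-COMBO comes from 23 cells.

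Class makeup moved with the libraries as well. Melanoma-like cells held 7.16% of the G2/M UMIs in Ad-Null and 9.84% in Ad-MEM40, against 1.13% in Ad-mIFNB and 0.0969% in Ad-COMBO. With the class levels weighted by the class shares of Ad-Null, the log2 ratio of the G2/M sum was −0.82 for Ad-mIFNB and −0.54 for Ad-COMBO, and that of the S sum −0.33 and −0.69. Without melanoma-like cells and cells that met more than 1 gate, the G2/M ratio of Ad-COMBO was −0.64 and its S ratio −0.49.

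Other genes of the same pathways were taken from 9 lists of 83 genes in all, none of them members. After Ad-MEM40 0 of 83 passed 1.5-fold, where 0.776% of all genes were higher and 0.34% lower. After Ad-mIFNB 3 were higher and 13 lower, with a median of −0.29, against 2.65% and 1.41% of all genes. After Ad-COMBO 2 were higher and 29 lower, with a median of −0.44, against 5.98% and 3.22%. The counts of higher genes were thus near or below these shares, which also apply to the single lists. Of the 14 chromatin and spindle genes of cycling cells, 9 were lower after Ad-mIFNB, led by Prc1 of the central spindle at −1.25, and 8 after Ad-COMBO, led by the microtubule destabilizer Stmn1 at −1.18. Of the 12 genes of polymerases and fork proteins, 0 were lower after Ad-mIFNB, where the DNA ligase Lig1 was lowest at −0.52, and 5 after Ad-COMBO, led by Pola1 of the primase complex at −0.84. Of the 11 genes of origin licensing and firing, 0 and 4 were lower, with Dbf4 lowest at −0.45 and Orc6 at −0.83. Of the 6 genes of nucleotide synthesis, 2 and 4 were lower, led by the thymidine kinase Tk1 at −0.65 and by Nme1 at −1.08. Of the 9 genes of checkpoint and mitotic entry, 2 and 4 were lower, led by Mad2l1 at −0.63 and by the APC/C inhibitor Fbxo5 at −0.83.

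Upstream regulators were counted apart, beside the same shares of all genes. Of the 9 genes of the Rb and E2F family 0 passed in any of the 3 comparisons, with E2f8 lowest at −0.39 after Ad-mIFNB and E2f1 at −0.55 after Ad-COMBO. Of the 6 genes of MuvB and FoxM1 transcription 1 was lower, Foxm1 after Ad-COMBO at −0.82, and after Ad-mIFNB it stood at −0.52. Of the 9 G1/S cyclins and kinases 2 were higher after Ad-mIFNB, led by the D cyclin Ccnd2 at 0.70. After Ad-COMBO 1 was higher, Ccnd2 at 0.59, and 2 were lower, led by Cdk4 at −0.78.

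The CDK inhibitors were given one by one. Cdkn1a, p21, stood at 432 CPM in Ad-Null, 504 in Ad-MEM40, 552 in Ad-mIFNB and 605 in Ad-COMBO, which is 0.22, 0.35 and 0.48 on the log2 scale and short of 1.5-fold in all cells. Within classes Cdkn1a passed 1.5-fold in cDC1-like cells, at 155, 153, 276 and 275 CPM (0.81 after both viruses with mIFNB). After Ad-COMBO it also passed in Itgam/Ccr2 cells (1.24, from 549 to 1308 CPM) and in mature DC-like cells (0.62), but not in macrophage-like cells (0.13). Cdkn2b, p15, stood at 1.47, 1.49, 5.19 and 5.13 CPM and passed in both libraries with mIFNB, at 0.66 and 0.65. Cdkn2c, p18, stood at 14.2, 14.2, 9.56 and 7.08 CPM and was lower after Ad-COMBO, at −0.67. The ratios of Cdkn1b were −0.01, 0.06 and 0.01, those of Cdkn1c −0.07, 0.01 and −0.15, those of Cdkn2a 0.02, 0.22 and 0.22, and those of Cdkn2d −0.16, −0.18 and −0.39. By call and over all classes, Cdkn1a was higher in uncalled cells than in cells with both kinds of transcript in each library, for example at 571 against 385 CPM in Ad-mIFNB. Cdkn2c was higher in the cells with both, at 40.7 against 3.52 in that library. Within cDC1-like cells Cdkn1a was instead lower in uncalled cells in Ad-Null (146 against 208 CPM) and Ad-MEM40 (150 against 168). In this class it was higher in uncalled cells in Ad-mIFNB (286 against 156) and Ad-COMBO (399 against 179). The cDC1-like cells with both kinds were only 32 and 13 in these libraries, against 244 in Ad-Null and 308 in Ad-MEM40. The direction in Ad-mIFNB and Ad-COMBO thus rests on few cells. The part of class makeup in the difference over all classes was not tested. Over all classes the 8 interferon-stimulated genes were also lower in cells with both kinds than in uncalled cells in each library, at 789 against 1372 CPM in Ad-Null and 3444 against 6719 in Ad-mIFNB.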

How the data were processed

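Cells sorted for CD11c and MHC-II were measured by droplet 3′ RNA-seq, 1 library per virus. The deposited matrices hold raw UMI counts per gene and barcode. The submitters' processing notes name Cell Ranger 3.0, Seurat 4.0 and mm10, while the matrices were written by Cell Ranger 6.0.0, per the file headers. Barcodes with at least 500 genes and at most 10% mitochondrial UMIs were kept, doublets included. Scrublet (scanpy 1.11.5) called 612, 1961, 3 and 3 doublets, removed only as an alternative. For Ad-Null and Ad-MEM40 the calls were set to the expected share.

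Counts were summed over cells and given as CPM with exact Poisson intervals, which leave out the spread between cells. Ratios of sums have exact conditional intervals, and ratios of single genes used 5 CPM added to both sides and at least 20 UMIs over both libraries. With 1 library per group no test was possible, and a 1.5-fold limit stands in its place. A marker counted as present at 1 or more UMIs per 10000, and classes needed 3 of 8 markers (melanoma-like), 3 of 6 (pDC-like), 3 of 7 (mature DC-like), 2 of 7 (cDC1-like), 5 of 11 (macrophage-like) or 2 of 3 (cDC2-like and Itgam/Ccr2). In cDC2-like and Itgam/Ccr2 cells 2517 of 3344 and 2463 of 4084 stood at that minimum.

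The members and lists were chosen with earlier results of these data known. The gates, the 8 interferon-stimulated genes and the genes shown inside and outside calls were set after seeing the data. Values in all libraries were to be given for the 5 highest and 5 lowest members of each comparison with Ad-Null and for members highest outside the phase of their list, and pathway genes as counts with the extremes of each list and every CDK inhibitor. Analyses used Python 3.11.15, numpy 2.4.6, scipy 1.17.1 and pandas 2.3.3. The scripts were tested on simulated data. Alternatives were stricter cell filters, thinning, doublet removal, size factors, class weighting, gates, pseudocount, fold limit and call limits.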

Additional observations from a re-analysis of the deposited data

Results flagged for a closer look

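Some classes moved opposite ways against Ad-Null, each with a counting interval that leaves out 0. These intervals count UMIs and leave out the spread between cells. In each library the 10% of cells with the most G2/M UMIs held 75.7% to 83.3% of them. With 1 library per group the differences between classes were not tested. After Ad-MEM40 the S sum was higher in cDC2-like cells (0.24 on the log2 scale) and lower in mature DC-like (−0.21), macrophage-like (−0.10) and Itgam/Ccr2 cells (−0.079). The G2/M sum after Ad-MEM40 was higher in cDC2-like cells (0.17) and lower in mature DC-like (−0.31), macrophage-like (−0.19), Itgam/Ccr2 (−0.14) and cDC1-like cells (−0.036). In melanoma-like cells, 265 in Ad-MEM40 and 92 in Ad-Null, the lists themselves parted. Their S sum was higher after Ad-MEM40 (0.31, interval 0.27 to 0.36) and their G2/M sum lower (−0.31, −0.34 to −0.28). After Ad-mIFNB the G2/M sum was higher in mature DC-like cells (0.38) and lower in Itgam/Ccr2 (−1.21), cDC2-like (−0.94), cDC1-like (−0.88) and macrophage-like cells (−0.76). This mature DC-like value was −0.076 with cells thinned to 3000 UMIs and −0.26 with a stricter gate, and it rose past 1.5-fold with Scrublet doublets removed. After Ad-MEM40 the mature DC-like G2/M value was −0.11 with thinning and 0.19 with the stricter gate, and the mature DC-like S value −0.12 with thinning. The cDC2-like values after Ad-MEM40 were 0.063 for S and 0.069 for G2/M with thinning.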

How the results depend on the processing

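Of 261 recomputed values, 120 stayed within their interval or within 1.5 times their count, 140 moved further and 1 changed sign from a value past 1.5-fold. Sign changes of ratios under 1.5-fold that left their interval are given last, and the cause of each move was not tested. No paired analysis was possible because each group is 1 library. The class values of Ad-COMBO in the report rest on 23 to 143 cells, which limits their precision. The alternatives without Tpx2 and without melanoma-like and multiply gated cells were chosen after seeing the data. At 2-fold 5 members were lower after Ad-mIFNB and 3 after Ad-COMBO, against 0.307% and 0.504% of all genes. With cells thinned to 3000 UMIs 14 members were lower after Ad-COMBO, against 5.74% of all genes. In that setting 1 member was higher after Ad-mIFNB. No share of all genes is given here for that count, so it cannot be set against a background. Without thinning no member was higher by 1.5-fold after Ad-mIFNB, where 2.65% of all genes were. Ratios are log2, against Ad-Null unless another library is named after a slash.

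With at least 1000 genes and at most 5% mitochondrial UMIs per cell, the S ratios in all cells were 0.030 (Ad-MEM40), −0.67 (Ad-COMBO/Ad-MEM40) and −0.38 (Ad-COMBO/Ad-mIFNB). All cells gave −0.078 (Ad-MEM40), −0.82 (Ad-COMBO), −0.74 (Ad-COMBO/Ad-MEM40) and 0.13 (Ad-COMBO/Ad-mIFNB) for G2/M. The cDC1-like cells gave −0.011 (Ad-MEM40) and −1.05 (Ad-COMBO) for G2/M. The cDC1-like cells gave −0.79 (Ad-COMBO) for S. Macrophage-like cells gave −0.079 (Ad-MEM40) for S. Macrophage-like cells gave −0.13 (Ad-MEM40) and −0.29 (Ad-COMBO) for G2/M. Itgam/Ccr2 cells gave −0.10 (Ad-MEM40) for G2/M. The cDC2-like cells gave 0.21 (Ad-MEM40) for G2/M. The balance of S to G2/M was −0.80 in Ad-Null, −0.69 in Ad-MEM40 and −0.11 in Ad-mIFNB there. With median of ratios size factors, the S ratios in all cells were −0.034 (Ad-MEM40), −0.64 (Ad-COMBO) and −0.38 (Ad-COMBO/Ad-mIFNB). All cells gave −0.14 (Ad-MEM40), −0.79 (Ad-COMBO) and 0.12 (Ad-COMBO/Ad-mIFNB) for G2/M. With class levels weighted by the class shares of Ad-Null, the S ratios in all cells were −0.025 (Ad-MEM40), −0.33 (Ad-mIFNB) and −0.69 (Ad-COMBO). All cells gave −0.11 (Ad-MEM40), −0.82 (Ad-mIFNB) and −0.54 (Ad-COMBO) for G2/M. With cells thinned to 3000 UMIs, the G2/M ratios in all cells were −0.058 (Ad-MEM40), −0.89 (Ad-mIFNB), −0.42 (Ad-COMBO), −0.36 (Ad-COMBO/Ad-MEM40) and 0.48 (Ad-COMBO/Ad-mIFNB). All cells gave −0.38 (Ad-COMBO), −0.39 (Ad-COMBO/Ad-MEM40) and −0.095 (Ad-COMBO/Ad-mIFNB) for S. The cDC1-like cells gave −0.098 (Ad-MEM40), −0.97 (Ad-mIFNB) and −0.55 (Ad-COMBO) for G2/M. The cDC1-like cells gave −0.30 (Ad-mIFNB) and −0.53 (Ad-COMBO) for S. Macrophage-like cells gave −0.13 (Ad-MEM40) and −0.68 (Ad-mIFNB) for S. Macrophage-like cells gave −0.51 (Ad-mIFNB) for G2/M. Itgam/Ccr2 cells gave −0.10 (Ad-MEM40), −1.10 (Ad-mIFNB) and −1.15 (Ad-COMBO) for G2/M. Itgam/Ccr2 cells gave −0.19 (Ad-COMBO) for S. The cDC2-like cells gave 0.063 (Ad-MEM40) for S. The cDC2-like cells gave 0.069 (Ad-MEM40) and −0.80 (Ad-mIFNB) for G2/M. Mature DC-like cells gave −0.12 (Ad-MEM40), 0.32 (Ad-mIFNB) and 0.095 (Ad-COMBO) for S. Mature DC-like cells gave −0.11 (Ad-MEM40), −0.076 (Ad-mIFNB) and −0.28 (Ad-COMBO) for G2/M. The balance of S to G2/M was −0.60 in Ad-Null, −0.54 in Ad-MEM40, 0.0012 in Ad-mIFNB and −0.57 in Ad-COMBO there. Without melanoma-like cells and cells that met 2 or more gates, the G2/M ratios in all cells were −0.047 (Ad-MEM40), −0.64 (Ad-COMBO), −0.60 (Ad-COMBO/Ad-MEM40) and 0.27 (Ad-COMBO/Ad-mIFNB). All cells gave −0.49 (Ad-COMBO), −0.49 (Ad-COMBO/Ad-MEM40) and −0.21 (Ad-COMBO/Ad-mIFNB) for S. With Scrublet doublets removed, the G2/M ratios in all cells were −0.91 (Ad-mIFNB), −0.70 (Ad-COMBO) and −0.60 (Ad-COMBO/Ad-MEM40). The cDC1-like cells gave −0.055 (Ad-MEM40) and −0.92 (Ad-mIFNB) for G2/M. Macrophage-like cells gave −0.22 (Ad-MEM40) for G2/M. The cDC2-like cells gave 0.20 (Ad-MEM40) for S. Mature DC-like cells gave −0.20 (Ad-MEM40), 0.62 (Ad-mIFNB) and −0.60 (Ad-COMBO) for G2/M. The balance of S to G2/M was −0.70 in Ad-MEM40 there. Without Tpx2, the G2/M ratios in all cells were −1.02 (Ad-mIFNB), −0.79 (Ad-COMBO) and −0.70 (Ad-COMBO/Ad-MEM40). With gates of 1 more marker, the S ratio in cDC1-like cells was −0.087 (Ad-mIFNB). The cDC1-like cells gave −1.15 (Ad-mIFNB) and −0.89 (Ad-COMBO) for G2/M. Macrophage-like cells gave −0.14 (Ad-MEM40) for S. Macrophage-like cells gave −0.31 (Ad-MEM40), −0.65 (Ad-mIFNB) and −0.90 (Ad-COMBO) for G2/M. Itgam/Ccr2 cells gave −0.021 (Ad-MEM40), −0.41 (Ad-mIFNB) and −1.21 (Ad-COMBO) for S. Itgam/Ccr2 cells gave −0.96 (Ad-mIFNB) and 0.39 (Ad-COMBO) for G2/M. The cDC2-like cells gave 0.36 (Ad-MEM40) and −0.38 (Ad-mIFNB) for G2/M. The cDC2-like cells gave 0.44 (Ad-mIFNB) for S. Mature DC-like cells gave 0.19 (Ad-MEM40), −0.26 (Ad-mIFNB) and −1.28 (Ad-COMBO) for G2/M.

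Calls at 2 or more UMIs gave shares of 37.8%, 37.3%, 32.8% and 29.3% for S and 29.8%, 28.3%, 18.6% and 21.4% for G2/M, in the order Ad-Null, then Ad-MEM40, then Ad-mIFNB, then Ad-COMBO. Calls at 5 or more gave 10.8%, 11.0%, 7.47% and 6.84% for S and 16.4%, 15.7%, 7.91% and 10.7% for G2/M. Cells thinned to 1000 UMIs gave 5.56%, 5.32%, 4.15% and 3.61% for S and 11.4%, 11.1%, 5.16% and 7.97% for G2/M, and no thinning 69.5%, 53.8%, 62.5% and 57.2% for S and 51.7%, 39.3%, 36.0% and 32.6% for G2/M. With Scrublet doublets removed the G2/M share was 20.0% in Ad-Null and 18.7% in Ad-MEM40, and the S share of Ad-MEM40 21.6%.

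The G2/M ratio of Ad-COMBO in Itgam/Ccr2 cells thus reversed with 1 more marker. In mature DC-like cells the G2/M ratio of Ad-mIFNB changed sign on thinning and with the stricter gate, that of Ad-MEM40 with the stricter gate, and the S ratio of Ad-COMBO on thinning. The S ratio of Ad-mIFNB in cDC2-like cells changed sign with the stricter gate, and that of Ad-MEM40 in all cells with size factors and with class weights. The log2 ratio of S to G2/M sums in Ad-mIFNB turned to just above 0 on thinning.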
